A study of Mus musculus with 27 samples.

Results

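The genes described here are 9 members of the pathway by which cells sense RNA and answer type I interferon. They are the cytosolic RNA sensors Ddx58 (encoding RIG-I), Ifih1 (MDA5) and Dhx58 (LGP2), the transcription factors Irf7, Irf9, Irf1 and Stat2, and Ifnar1 and Ifnar2, the chains of the type I interferon receptor. They were chosen by name, with earlier results of these data known, and 9 of 9 were found among the 9996 genes of the authors' normalised RNA-seq table. RIG-I and MDA5 bind double-stranded or otherwise foreign RNA in the cytosol and signal through the adaptor MAVS to switch on interferon genes, and LGP2 modulates both. Type I interferon binds IFNAR1 and IFNAR2, whose kinases JAK1 and TYK2 phosphorylate STAT2, and STAT2 acts with IRF9 in the complex ISGF3, which binds the interferon-stimulated response element. The sensors, Irf7, Irf9 and Stat2 are themselves interferon-stimulated genes, whereas Irf1 is a primary target of interferon-gamma through gamma-activated sites.

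RNA came from macrophages and neutrophils sorted by flow cytometry out of mammary tumours that arose in K14cre;Cdh1F/F;Trp53F/F mice, in which Cre under the keratin 14 promoter deletes the genes for E-cadherin and p53 in epithelium. All groups, the controls included, carry these alleles, and the labels give neither sex nor age. Macrophages gave 2 libraries after cisplatin with anti-CSF-1R (the combination), 4 after cisplatin with the control antibody, 2 after anti-CSF-1R and 4 after the control antibody, and neutrophils gave 4 after the combination, 3 after cisplatin, 4 after anti-CSF-1R and 4 after the control antibody. Anti-CSF-1R blocks a receptor on which macrophages depend for growth and survival, and cisplatin is a DNA-crosslinking drug. Mice given cisplatin were sampled 1 day past their last of 2 doses, whereas mice without it were sampled at a tumour size of 100 mm2, so the endpoint and cisplatin cannot be told apart. Nothing states that replicate libraries came from separate mice, so p-values measure the spread between these libraries.

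The values are read counts the authors normalised, and decoded totals were 1302095 to 7499023 reads per macrophage library and 998706 to 3284970 per neutrophil library. Many printed values had lost their decimal point, and the place was recovered from the rule that values are whole numbers of reads and, where several places gave whole reads, from how each library resembled the others. That last step also used the treatment groups, so values with several places are not independent of the groups compared. Counts from a decoding without the groups are given in the closing section. Of the 243 values of the 9 genes, 153 had 1 possible place and 90 had several. Among the 90, Stat2 in combination macrophage replicate 1 and Dhx58 in control macrophage replicate 1 could not be placed and were left out. All 11 macrophage markers passed as higher in control macrophages than in control neutrophils and all 10 neutrophil markers as lower. The summed macrophage markers were 17048 to 36402 in macrophage libraries and 2292 to 5774 in neutrophil libraries. In bulk RNA, fewer cells of a type and less RNA per cell cannot be told apart.

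RefSeq promoter windows (GRCm38.p6, 250 bases before to 50 after the start of transcription) matched 8 of the 9 genes, all but Dhx58. The windows printed here are shown because they hold letters of the 2 elements named above, and Ifnar1, a gene that passed in no comparison of treatments, is set beside 4 that did. Capitals mark matches to the core of the interferon-stimulated response element (GAAA, any 2 bases and GAAA again, or TTTC, any 2 bases and TTTC on the other strand) and to the gamma-activated site (TTCNNNGAA, which reads alike on both strands). All sequences run 5′ to 3′ on the gene's strand. The windows are Ddx58 at chr4:40239776-40240075 (minus strand), Ifih1 at chr2:62646206-62646505 (minus strand), Stat2 at chr10:128270248-128270547 (plus strand), the first of 2 windows of Irf1 at chr11:53769764-53770063 (plus strand) and Ifnar1 at chr16:91484965-91485264 (plus strand).
Ddx58: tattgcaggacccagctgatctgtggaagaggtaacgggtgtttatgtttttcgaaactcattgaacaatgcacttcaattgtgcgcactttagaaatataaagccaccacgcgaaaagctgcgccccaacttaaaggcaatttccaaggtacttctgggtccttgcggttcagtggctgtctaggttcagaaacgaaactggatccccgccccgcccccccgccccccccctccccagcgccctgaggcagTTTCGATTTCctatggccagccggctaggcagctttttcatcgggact
Ifih1: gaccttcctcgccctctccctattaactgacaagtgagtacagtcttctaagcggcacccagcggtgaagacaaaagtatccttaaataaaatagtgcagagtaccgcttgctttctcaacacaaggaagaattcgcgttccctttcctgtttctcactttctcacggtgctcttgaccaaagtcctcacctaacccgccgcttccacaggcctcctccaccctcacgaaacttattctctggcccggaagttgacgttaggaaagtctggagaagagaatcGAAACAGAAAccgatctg
Stat2: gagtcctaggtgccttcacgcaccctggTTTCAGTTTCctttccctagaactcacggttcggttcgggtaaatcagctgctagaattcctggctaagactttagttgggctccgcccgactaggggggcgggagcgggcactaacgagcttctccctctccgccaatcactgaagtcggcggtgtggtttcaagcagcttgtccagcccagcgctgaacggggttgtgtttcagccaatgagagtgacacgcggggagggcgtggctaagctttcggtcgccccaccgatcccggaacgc
Irf1: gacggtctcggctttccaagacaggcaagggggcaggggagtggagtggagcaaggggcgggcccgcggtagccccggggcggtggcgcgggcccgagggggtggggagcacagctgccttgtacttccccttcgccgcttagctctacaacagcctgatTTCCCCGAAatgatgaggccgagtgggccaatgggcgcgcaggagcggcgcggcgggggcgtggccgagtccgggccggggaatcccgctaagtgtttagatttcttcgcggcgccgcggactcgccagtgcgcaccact
Ifnar1: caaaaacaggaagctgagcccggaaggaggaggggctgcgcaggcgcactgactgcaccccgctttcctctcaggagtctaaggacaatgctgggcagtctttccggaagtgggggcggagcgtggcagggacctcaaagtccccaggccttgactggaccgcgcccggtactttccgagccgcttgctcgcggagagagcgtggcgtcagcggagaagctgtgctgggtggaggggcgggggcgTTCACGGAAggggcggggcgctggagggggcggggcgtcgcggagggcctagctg
The response element core was found in Ddx58, Ifih1 and Stat2, 3 of the 8 genes with a window, and in 3.44% of all 32851 windows. The gamma-activated site was found in Irf1, Ifnar1 and Ifnar2 and in 8.3% of all windows. With the start as base 1, the matches began at base 3 in Ddx58, base 33 in Ifih1, base -222 in Stat2, base -90 in Irf1 and base -5 in Ifnar1. The windows of Irf7 and Irf9 and the second window of Irf1 held neither set of letters.

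In neutrophils the 3 sensors and 2 of the 4 interferon factors rose after the combination against control antibody. Ddx58, Ifih1, Dhx58, Irf7 and Stat2 rose by 2.11 to 2.80 on the log2 scale (limma, adjusted p of 0.0244 to 0.0483, n = 4 and 4). That is 5 of 9 genes, where 0.745% of all 9133 genes tested rose in this comparison and 0.854% changed in either direction. In 8 of the 9 genes, all but Ifnar1, every combination library lay above every control library, as it did for 5.69% of all genes.

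Ddx58 (chromosome 4, 40203773 to 40239828, minus strand, GRCm38) stood at 775, 1224, 622 and 656 in combination neutrophils, against 170, 124, 124 and 413 in control neutrophils. All 8 of these values had 1 possible decimal place. The lowest combination library exceeded the highest control library, which was replicate 4, and the log2 fold change was 2.11 ± 0.49 (SE, adjusted p = 0.0483). Cisplatin neutrophils stood at 538, 337 and 371 and anti-CSF-1R neutrophils at 376, 338, 98.5 and 832, and both overlapped with the control neutrophils.

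Ifih1 (chromosome 2, 62595798 to 62646255, minus strand), whose product recognises long double-stranded RNA, stood at 846, 1090, 678 and 656 in combination neutrophils, against 150, 71.0, 57.4 and 422 in control neutrophils. The groups did not overlap, and control replicate 4 was again the highest control library. The 3 lower control values each had several possible places. The log2 fold change was 2.65 ± 0.58 (SE, adjusted p = 0.0437). Dhx58 (chromosome 11, 100694884 to 100704271, minus strand) encodes the sensor that lacks a signalling domain of its own, and it stood at 68.6, 69.7, 57.2 and 75.5 in combination neutrophils, against 16.3, 7.39, 9.25 and 28.7 in control neutrophils. Its log2 fold change was 2.24 ± 0.52 (SE, adjusted p = 0.0481), and 7 of these 8 values had several possible places.

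Irf7 (chromosome 7, 141262706 to 141266481, minus strand), the factor that amplifies interferon transcription, is itself induced by interferon. It stood at 549, 633, 385 and 460 in combination neutrophils, against 97.7, 28.1, 29.6 and 299.9 in control neutrophils, a log2 fold change of 2.80 ± 0.60 (SE, adjusted p = 0.0422). A decoding from the group means alone favoured 281 and 296 for control replicates 2 and 3 in place of the values used. Both fell short of the probability of 0.95 required to keep a value, so that fit left them out. With control replicates 1 and 4 alone, at 97.7 and 299.9, the log2 fold change was 1.53 without passing. Stat2 (chromosome 10, 128270559 to 128292849, plus strand), the STAT particular to type I and III interferon signalling, stood at 522, 709, 379 and 548 in combination neutrophils, against 141, 66.5, 49.96 and 301 in control neutrophils. Its log2 fold change of 2.26 ± 0.42 (SE) had the smallest adjusted p of the 9 genes (0.0244). In Irf7 and Stat2, control replicate 4 was the control library nearest the combination libraries, and the 3 lower control values of Irf7 and the 2 lowest of Stat2 had several possible places.

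Irf9 (chromosome 14, 55603571 to 55610030, plus strand), the DNA-binding subunit of ISGF3, stood at 405, 531, 269 and 344 in combination neutrophils, against 118, 51.7, 68.5 and 239 in control neutrophils. The groups did not overlap, but the log2 fold change of 1.90 ± 0.46 (SE) missed the threshold (adjusted p = 0.0581). Irf1 (chromosome 11, 53770014 to 53778374, plus strand) stood at 1145, 1090, 1071 and 1317 in combination neutrophils, against 280, 228, 302 and 938 in control neutrophils. The combination libraries lay close together and the control libraries did not, with replicate 4 apart from the other 3. All 8 Irf1 values had 1 possible place, and the log2 fold change of 1.65 ± 0.44 (SE) missed the threshold (adjusted p = 0.0808).

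Neither receptor chain passed. Ifnar1 (chromosome 16, 91485238 to 91507441, plus strand) stood at 279, 535, 327 and 424 in combination neutrophils, against 363, 353, 303 and 242 in control neutrophils, and the groups overlapped (log2 fold change 0.28 ± 0.26 SE, adjusted p = 0.649). Ifnar2 (chromosome 16, 91372783 to 91405589, plus strand) stood at 445, 523, 506 and 435 in combination neutrophils, against 329, 361, 400 and 412 in control neutrophils. These groups did not overlap, and the difference was small and did not pass (log2 fold change 0.35 ± 0.21 SE, adjusted p = 0.456).

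The neutrophil calls were close to the threshold. With control replicate 4 left out, 7 of 9 genes passed, with only the receptor chains below the threshold. With combination replicate 3 left out 3 passed, and with any one of combination replicates 1, 2 and 4 or of control replicates 1, 2 and 3 left out, 0 passed, as without both libraries that stood apart from the rest (combination replicate 2 and cisplatin replicate 2). By limma-voom on decoded reads 0 of the 9 genes and 0 of all 9134 genes passed. With only values of 1 possible place, Ddx58 passed alone at 2.11. In that setting replicate 4 was the 1 control library left for Ifih1, Irf7 and Irf9, whose log2 fold changes were then 0.92, 0.73 and 0.69, and Stat2 stood at 1.35. The log2 fold changes of all 9 genes stayed above 0 in every alternative run. The summed monocyte markers were 1749 to 8167 in combination neutrophils and 1197 to 1502 in control neutrophils, without overlap, although 0 of the 5 passed on their own by limma, and their part in these results was not tested.

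**Figure D1:**
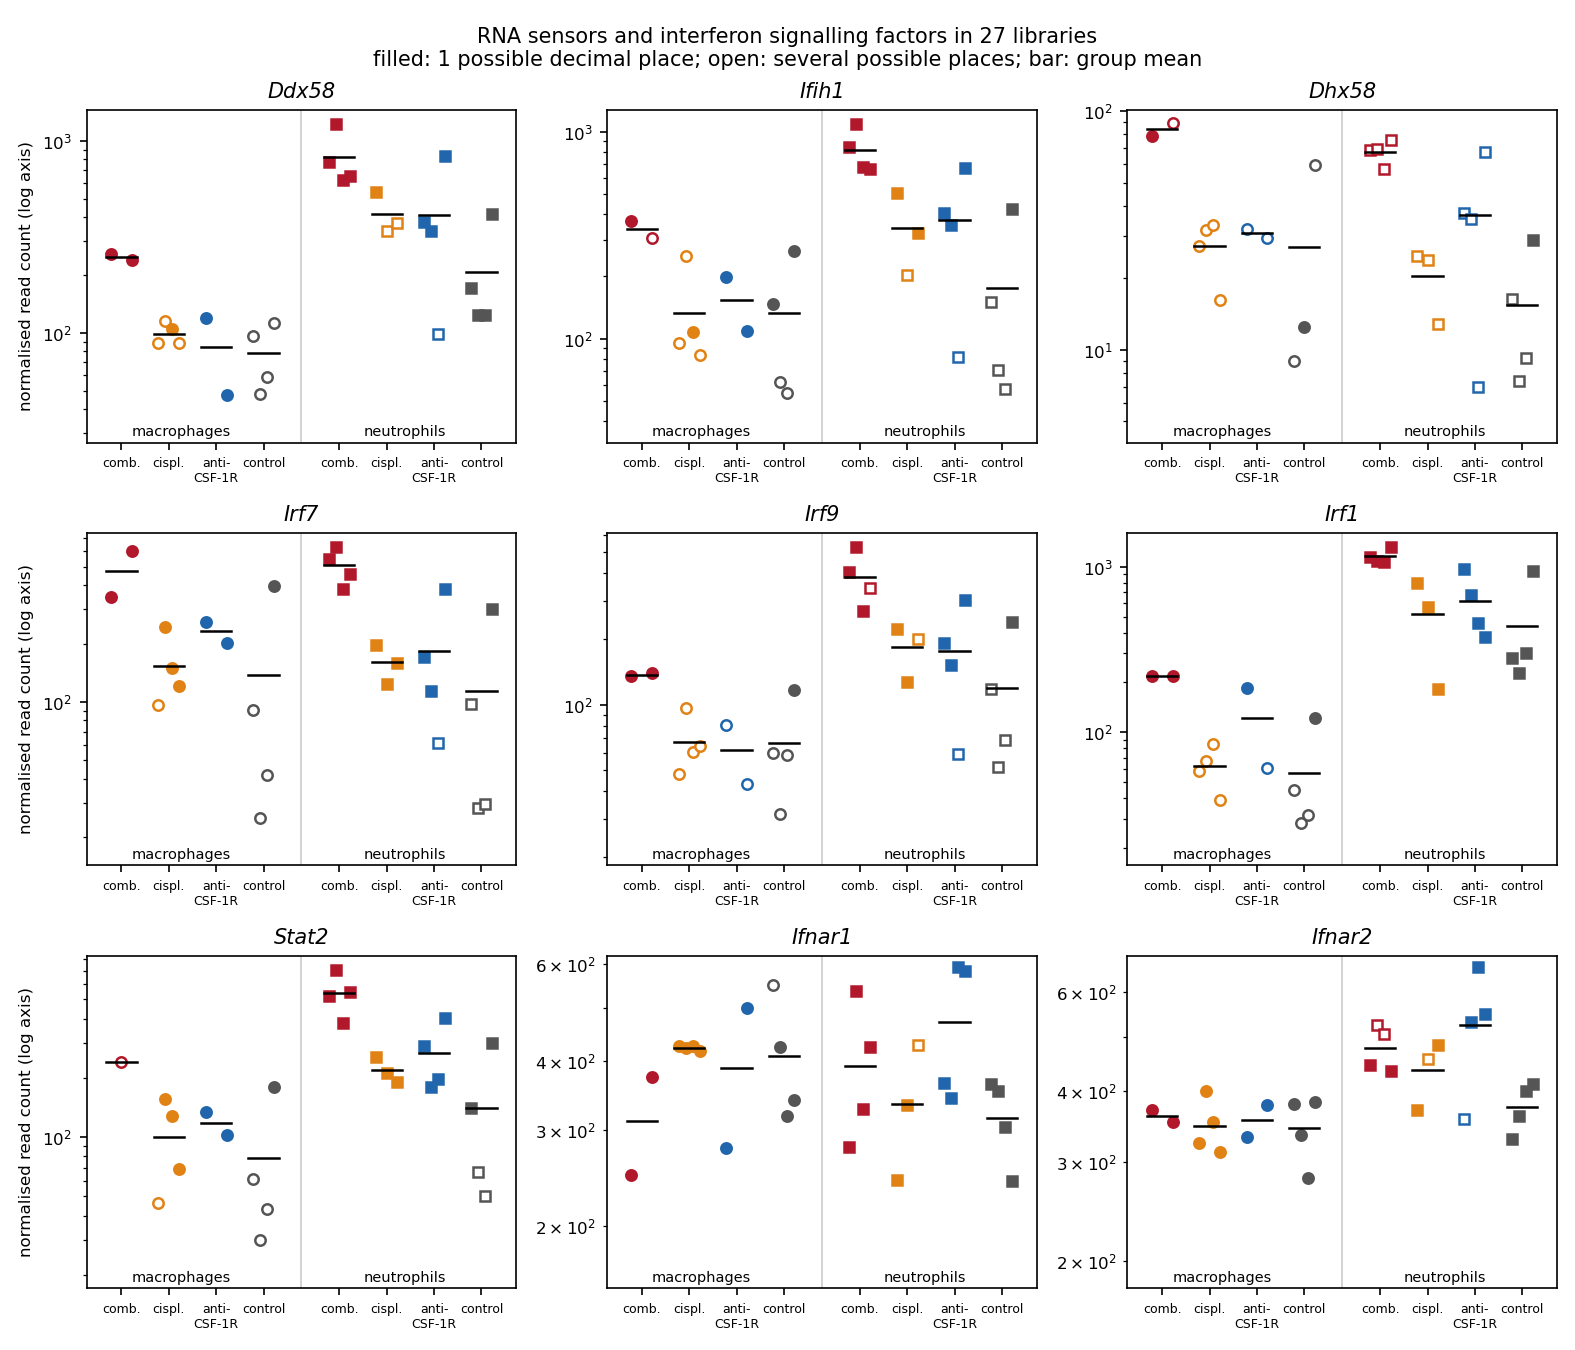
Normalised read count (log axis) of each gene in every library, by cell type and treatment; circles are macrophages and squares neutrophils, filled where 1 decimal place was possible and open where several were, and bars are group means. In neutrophils the combination libraries lie above the control libraries for all genes but Ifnar1. In each cell type 1 control library holds the highest control value of every sensor and factor, by a small margin for Ddx58 in macrophages.

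In macrophages Ddx58 and Irf1 rose after the combination against control antibody, 2 of 9 genes, where 1.17% of 9175 genes tested rose and 2.38% changed in either direction. Ddx58 stood at 256 and 238 in combination macrophages, against 96.6, 47.9, 58.5 and 112 in control macrophages (log2 fold change 1.72 ± 0.37 SE, limma, adjusted p = 0.0318). Irf1 stood at 219 and 217 in combination macrophages, against 44.9, 28.4, 31.7 and 122 in control macrophages (log2 fold change 2.18 ± 0.53 SE, adjusted p = 0.0476). In 6 of the 9 genes, all but Irf7 and the receptor chains, every usable combination value lay above every usable control value, as in 14.2% of all genes. One of the 6, Stat2, had 1 usable combination value, and Dhx58 had 3 control values. For Ddx58 and Irf1, 7 of the 8 control values had several possible places.

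Ifih1 stood at 371 and 306 in combination macrophages, against 148, 61.7, 55.1 and 266 in control macrophages, a log2 fold change of 1.64 ± 0.56 (SE, adjusted p = 0.142). Dhx58 stood at 79.0 and 88.8 in combination macrophages, against 8.92, 12.4 and 59.7 in the 3 control macrophage libraries with a value (2.08 ± 0.59 SE, adjusted p = 0.0869). Irf7 stood at 347 and 599 in combination macrophages, against 91.1, 25.1, 42.0 and 395 in control macrophages (2.51 ± 0.76 SE, adjusted p = 0.0963). Control replicate 4 was the highest control library in each of these genes, and for Irf7 it lay between the combination libraries. For Irf7 a decoding from the group means alone favoured 251 and 420 for control replicates 2 and 3. Both fell short of the probability of 0.95 and were left out of that fit. With control replicates 1 and 4 alone, at 91.1 and 395, the log2 fold change was 1.26.

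Irf9 stood at 136 and 139 in combination macrophages, against 60.0, 31.6, 58.5 and 117 in control macrophages (1.18 ± 0.42 SE, adjusted p = 0.155). Stat2 had 1 usable combination value, 242, against 61.4, 30.01, 43.4 and 179 in control macrophages (1.95 ± 0.77 SE, adjusted p = 0.211). Its combination values are not settled: a decoding that used the group means alone favoured values a factor of 10 lower for both. Replicate 2 then fell short of the probability of 0.95, so the log2 fold change of -1.0 rested on replicate 1 alone. A decoding that ignored the groups also turned the log2 fold change to -1.0. Ifnar1 stood at 248 and 374 in combination macrophages, against 549, 424, 318 and 340 in control macrophages (-0.39 ± 0.28 SE, adjusted p = 0.519), and Ifnar2 at 371 and 352, against 379, 334, 280 and 382 (0.08 ± 0.20 SE, adjusted p = 0.869).

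Without control replicate 4, 7 of 9 genes passed in macrophages too, again all but the receptor chains. Without control replicate 1, Ddx58 passed alone, and 0 passed without control replicate 2 or 3 or with either combination library left out, where the lone library was assumed to vary like the other groups. With only values of 1 possible place, Ddx58 had no control value, and the log2 fold changes were 0.83 for Irf1, 0.21 for Irf7, 0.23 for Irf9 and 0.90 for Ifih1, none passing. With no filter on low values, or with all 8 groups in one fit, 0 passed. Combination macrophages also differed in markers of other myeloid cells. Of 5 monocyte markers 4 rose against control, among them Ly6c2, Plac8 and Chil3, of 7 neutrophil markers tested 1 rose (Mmp8), and of 3 eosinophil markers tested 2 rose (Ear1 and Ear2). The summed neutrophil markers were 1347 to 1487 in combination macrophages and 247 to 1520 in control macrophages, against 36913 to 99728 in combination neutrophils, and the summed monocyte markers were 846 to 2408 in combination and 302 to 870 in control macrophages. The part of these cells in the values of Ddx58 and Irf1 was not tested.

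**Figure D2:**
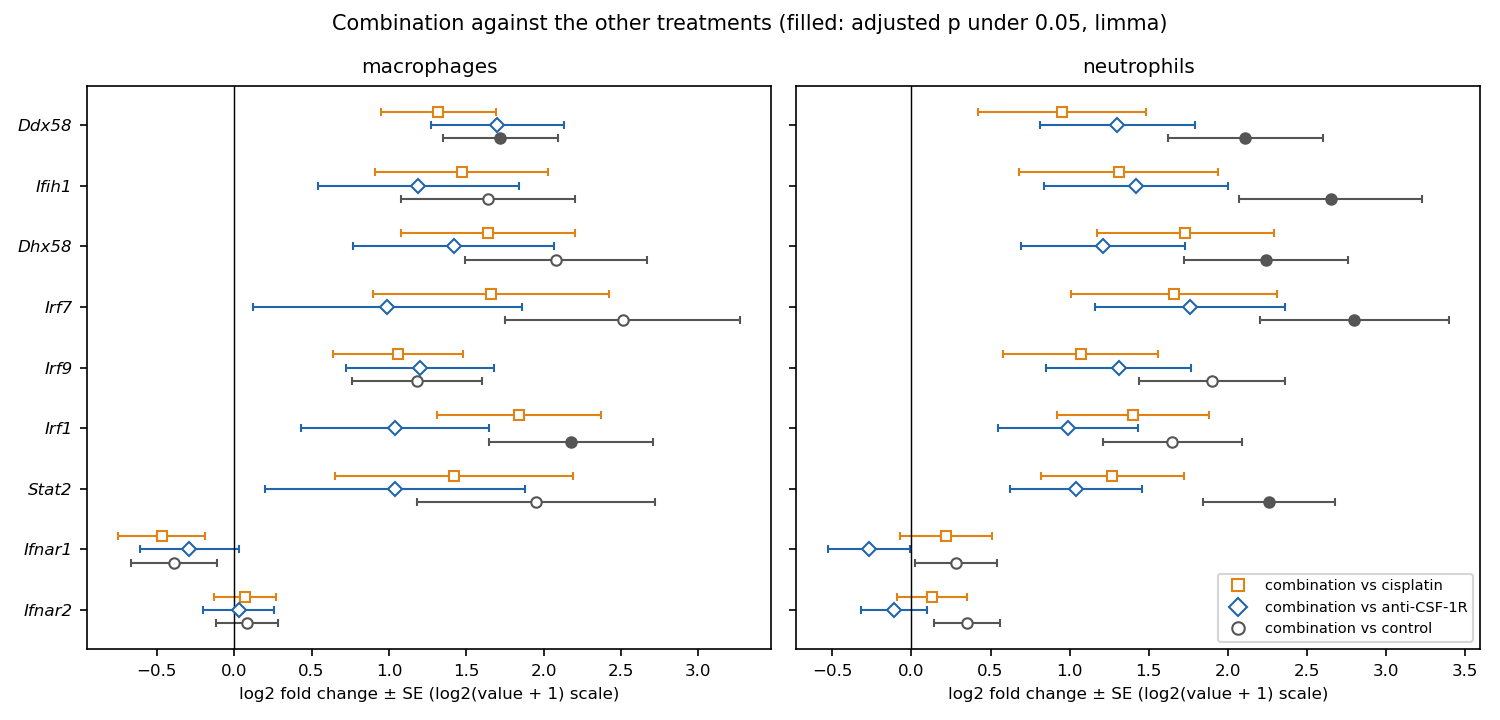
Log2 fold change with its SE (x axis, log2(value + 1) scale) of the combination over cisplatin, anti-CSF-1R and control for each gene, macrophages left and neutrophils right; filled symbols passed an adjusted p of 0.05. The sensors and factors lie to the right of 0 in all 6 comparisons and the receptor chains lie between -0.47 and 0.35, with 2 genes passing against control in macrophages and 5 in neutrophils.

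Against cisplatin alone, which shares the endpoint, 0 of 9 genes passed in either cell type by limma or by limma-voom on decoded reads, with 6 in macrophages and 5 in neutrophils at an unadjusted p under 0.05, as were 19.8% and 7.19% of all genes. Of all genes tested 2.45% passed in macrophages and 0% in neutrophils. In both cell types 7 of 9 genes, the sensors and the factors, had every combination library above every cisplatin library, as did 16.9% of all genes in macrophages and 4.85% in neutrophils. For Stat2 in macrophages this rests on 1 usable combination value, and under the other decodings its log2 fold change against cisplatin was -1.53. In macrophages Irf1 stood at 219 and 217 in the combination, against 58.3, 67.0, 85.2 and 38.9 with cisplatin, a difference of 1.84 ± 0.53 (log2, SE, adjusted p = 0.0796), and Ddx58 at 256 and 238, against 88.6, 115, 105 and 88.0 (1.32 ± 0.37 SE, adjusted p = 0.0752). In neutrophils Dhx58 stood at 68.6, 69.7, 57.2 and 75.5 in the combination, against 24.6, 23.7 and 12.8 with cisplatin (1.73 ± 0.56 SE, adjusted p = 0.518), and Irf1 at 1145, 1090, 1071 and 1317, against 792, 569 and 183 (1.40 ± 0.48 SE, adjusted p = 0.568). Ifnar1 was the exception in macrophages, where 248 and 374 in the combination lay below 425, 422, 425 and 417 with cisplatin, a lack of overlap seen for 18.8% of all genes, without passing (-0.47 ± 0.28 SE, adjusted p = 0.378). With weights per library 6 of 9 genes passed against cisplatin in macrophages.

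Against anti-CSF-1R alone 0 of 9 genes passed in either cell type, and 0% of all genes passed by limma or limma-voom. At an unadjusted p under 0.05 were 3 of the 9 in macrophages and 7 in neutrophils, as were 7.9% and 8.88% of all genes. Every combination library lay above every anti-CSF-1R library in 7 of 9 genes in macrophages, as in 20.2% of all genes, with 2 libraries a group except for Stat2, which had 1 usable combination value. In neutrophils this held for 2 genes, Irf7 and Irf1, as in 3.45% of all genes. For Ddx58, Ifih1, Dhx58, Irf9 and Stat2, anti-CSF-1R replicate 4 lay above the lowest combination library. It stood at 832 for Ddx58, 664 for Ifih1, 67.5 for Dhx58 and 384 for Irf7, while replicate 3 stood at 98.5, 82.2, 6.95 and 61.4 for the same genes. The summed mast cell and basophil markers were 6.78 and 8129 in the 2 anti-CSF-1R macrophage libraries. They were 6.4 to 11.2 in combination macrophages and 6.41 to 66.1 in control macrophages. Their part in comparisons that use anti-CSF-1R macrophages was not tested.

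The single treatments gave 0 of 9 passing genes against control in both cell types by limma and by limma-voom. Of all genes tested 2.19% passed for anti-CSF-1R and 0.0761% for cisplatin in macrophages, and 0.0109% and 0% in neutrophils. At an unadjusted p under 0.05 stood 1 gene for anti-CSF-1R and 0 for cisplatin in macrophages, where 19.5% and 8.35% of all genes did, and 3 for each in neutrophils, where 7.85% and 6.39% did. The median log2 fold change of the 9 genes was 0.45 for anti-CSF-1R and 0.34 for cisplatin in macrophages and 0.81 and 0.82 in neutrophils, against 1.72 in macrophages and 2.11 in neutrophils for the combination. The median over all genes tested was at most 0.03 in these comparisons. Without control replicate 4, Irf7, Dhx58 and Irf1 passed for anti-CSF-1R in macrophages, at 2.29, 1.46 and 1.59. Whether the effect of adding anti-CSF-1R differed with and without cisplatin was tested directly, and 0 of 9 genes and 0% of all genes passed in either cell type by limma or limma-voom (adjusted p of at least 0.724 in macrophages and 0.997 in neutrophils, with 1 and 0 genes at an unadjusted p under 0.05). The comparisons with control share the same 4 control libraries per cell type.

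**Figure D3:**
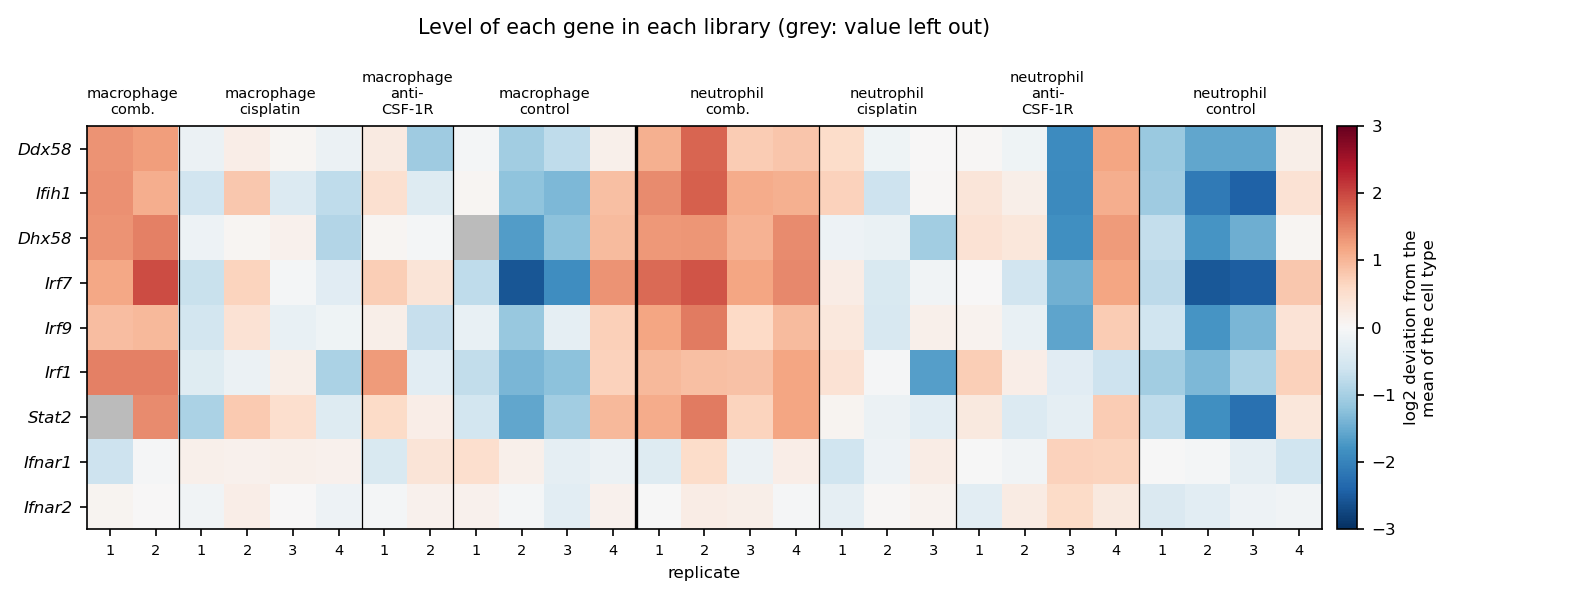
Deviation of each gene's log2(value + 1) from its mean over the cell type (colour) in every library (columns, by group and replicate); grey marks the 2 values left out. Combination libraries are above the mean for the sensors and factors in both cell types, control replicates 2 and 3 are below it, and control replicate 4 lies above the other control libraries for the sensors and factors.

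Control replicate 4 was the highest of 4 control libraries for 8 of 9 genes in macrophages and for 8 of 9 in neutrophils, with 3 usable control values for Dhx58 in macrophages. The numbers follow the order of the samples, so the shared number pairs no libraries. Whether these 2 libraries came from the same mouse or batch is not given in the labels. By Dixon's criterion, 0 of the 44 groups of 4 libraries examined were flagged as holding a library far from the others. That count depends on the scale of the values, because a log scale shrinks the gap below a high library. For Irf1 in control neutrophils, the other libraries stood at 228 to 302, so on the counts themselves most of the range was that gap. The count of 0 therefore does not clear control replicate 4. In neutrophils its Irf1 value of 938 was 3.11 times the next highest control value, and in macrophages its Irf7 value of 395 was 4.34 times the next. The spread within groups, as the residual SD on the log2 scale, was 0.50 to 1.12 in macrophages and 0.70 to 1.04 in neutrophils for the sensors and factors, against medians of 0.39 and 0.49 over all genes tested. The receptor chains were tighter than that median, with 0.34 for Ifnar1 and 0.17 for Ifnar2 in macrophages and 0.38 and 0.24 in neutrophils.

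Within groups the sensors and factors moved together from library to library. After removing group means, the pairwise Pearson correlation was 0.70 to 0.93 over 10 to 12 macrophage libraries (21 pairs, median 0.83). In neutrophils the 6 genes other than Irf1 correlated at 0.68 to 0.97 with each other over 15 libraries (15 pairs, median 0.88), while Irf1 correlated with them at 0.35 to 0.49. The points share library and depth, and the decoding used the likeness of libraries to place open values. With only values of 1 possible place, Irf7 and Stat2 correlated at 0.95 over 11 neutrophil libraries, Ddx58 and Stat2 at 0.79 over 10, and Irf1 and Stat2 at 0.44 over 13. A receptor chain and a sensor or factor correlated at -0.70 to -0.05 in neutrophils and at -0.43 to 0.75 in macrophages.

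Over all 27 libraries, centred within each cell type, the 5 other genes most like the mean of the 9 were Oas1a (r = 0.98), Oas3 (0.97), Rtp4 (0.96), Rsad2 (0.96 over 25 libraries) and Isg15 (0.96), out of 5104 genes compared. Oas1a and Oas3 encode oligoadenylate synthetases, Rsad2 encodes viperin and Isg15 a ubiquitin-like modifier.

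Other genes of the pathway were counted in lists, and the genes named from them against control were picked after their values were seen. Of 20 ISGF3 target effectors, 11 rose in combination neutrophils against control and 0 fell (median 2.41, all genes 0.02). Cmpk2, a mitochondrial nucleotide kinase, averaged 765 ± 534 in combination and 99.1 ± 128 in control neutrophils (SD, n = 4 each), a log2 fold change of 3.55 ± 0.64 (SE, adjusted p = 0.0231). Ifit2, which binds RNA, averaged 1156 ± 487 in combination and 155 ± 151 in control neutrophils (3.28 ± 0.68 SE, adjusted p = 0.0422). In combination macrophages 5 of the 20 rose against control (median 1.96): Rsad2, Cmpk2, Oas3, Rtp4 and Mx1. Among all genes tested, 0.745% rose after the combination against control in neutrophils and 1.17% in macrophages. Against cisplatin 1 of the 20 rose in macrophages (Rsad2) and 0 in neutrophils, with medians of 1.6 and 1.32.

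Of 17 interferon-gamma and Irf1 targets, 3 rose in combination neutrophils against control (median 2.16). Gbp5, a guanylate-binding GTPase, averaged 414 ± 150 in combination and 70.9 ± 92.4 in control neutrophils (SD, n = 4 each; 3.21 ± 0.55 SE, adjusted p = 0.0231), and Gbp4 and Nlrc5 rose too. In combination macrophages Cd274, which encodes the checkpoint ligand PD-L1, was the 1 gene of 16 tested that rose (677 ± 127, n = 2, against 235 ± 89.5 in control, n = 4; 1.59 ± 0.39 SE, adjusted p = 0.0498). The shares of all genes that rose were again 0.745% in neutrophils and 1.17% in macrophages.

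The upstream parts of the pathway gave few calls. Against control by limma, 0 of 17 other nucleic acid sensors and adaptors tested in neutrophils (median 0.71) and 0 of 18 in macrophages (0.23) passed, and 0 of 11 kinases and adaptors downstream of the sensors in each (0.28 in neutrophils and 0.31 in macrophages). Among 5 other interferon-regulatory factors Irf2 rose in combination neutrophils (322 ± 79.3, against 125 ± 30.4 in control; SD, n = 4 each; 1.36 ± 0.27 SE, adjusted p = 0.0363) and 0 passed in macrophages. Of 12 other receptors, kinases and STATs and of the negative regulators (13 tested in neutrophils and 11 in macrophages) 0 passed in either cell type. Jak1 stood at 0.30 ± 0.20 (SE, adjusted p = 0.51) in neutrophils and 0.14 ± 0.19 (SE, adjusted p = 0.744) in macrophages. The adaptor gene Mavs stood at 0.23 ± 0.40 (SE, adjusted p = 0.834) in neutrophils and -0.66 ± 0.32 (SE, adjusted p = 0.308) in macrophages. The 9 interferon genes listed were not analysed here.

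Macrophages and neutrophils differed in Irf1, Ddx58 and Irf9. Irf1 and Ddx58 passed as lower in macrophages under each of the 4 treatments. Under control antibody Irf1 averaged 56.8 ± 44.2 in macrophages and 437 ± 335 in neutrophils (SD, n = 4 each; log2 fold change -2.93 ± 0.47 SE, limma, adjusted p = 1.74e-05), and Ddx58 averaged 78.7 ± 30.3 in macrophages and 208 ± 138 in neutrophils (-1.28 ± 0.45 SE, adjusted p = 0.0202). These were 2 of 9 genes, where 24.3% of all 9902 genes tested were lower in macrophages and 49.9% differed in either direction. After the combination Irf1 averaged 218 ± 0.824 in macrophages (SD, n = 2) and 1156 ± 112 in neutrophils (SD, n = 4), a log2 fold change of -2.40 ± 0.58 (SE, adjusted p = 0.00163), and Ddx58 averaged 247 ± 13.0 in macrophages and 819 ± 278 in neutrophils (-1.67 ± 0.55 SE, adjusted p = 0.0156).

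Irf9 was lower in macrophages after the combination (-1.45 ± 0.54 SE, adjusted p = 0.0307), cisplatin (-1.43 ± 0.48 SE, adjusted p = 0.0128) and anti-CSF-1R (-1.34 ± 0.54 SE, adjusted p = 0.0479), and under control it stood at -0.73 ± 0.44 (SE, adjusted p = 0.169). Stat2 was lower in macrophages with cisplatin (-1.27 ± 0.52 SE, adjusted p = 0.0421). The counts of genes lower in macrophages were 3 of 9 after the combination, 4 with cisplatin and 3 with anti-CSF-1R, where 23.4%, 27.3% and 20.5% of all genes were lower and 45.6%, 56.4% and 40.8% differed in either direction. Without macrophage anti-CSF-1R replicate 2 the count with anti-CSF-1R was 0, without neutrophil cisplatin replicate 1 the cisplatin count was 2, and without either combination macrophage library the combination count was 1. Under control, without macrophage replicate 2 or 3 or neutrophil replicate 4 the count was 1, and with only values of 1 possible place Irf1 stood at -1.58 without passing. Dhx58 and Irf7 had log2 fold changes of 0.10 to 0.47 and of -0.13 to 0.64 over the 4 treatments, none passing. The lowest and highest group means of Dhx58 were 15.4 in control neutrophils and 83.9 in combination macrophages, the 1 gene of the 9 whose highest mean was in macrophages. Ifnar1 and Ifnar2 did not pass between cell types under any treatment as deposited, although Ifnar1 passed as higher in macrophages under control and cisplatin with quantile normalisation. With anti-CSF-1R, Ifnar2 stood at -0.53 ± 0.22 (SE, adjusted p = 0.0556) and passed as lower in macrophages with TMM factors (-0.64), limma-voom (-0.53), values of 1 possible place only (-0.70) and without neutrophil replicate 1 (-0.70). A test of whether combination against cisplatin, or anti-CSF-1R against control, differed between the cell types passed for 0 of 9 genes by limma or limma-voom, and for 0.0304% and 0.0507% of all genes (adjusted p of at least 0.669 and 0.772, with 0 genes at an unadjusted p under 0.05 in each).

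**Figure D4:**
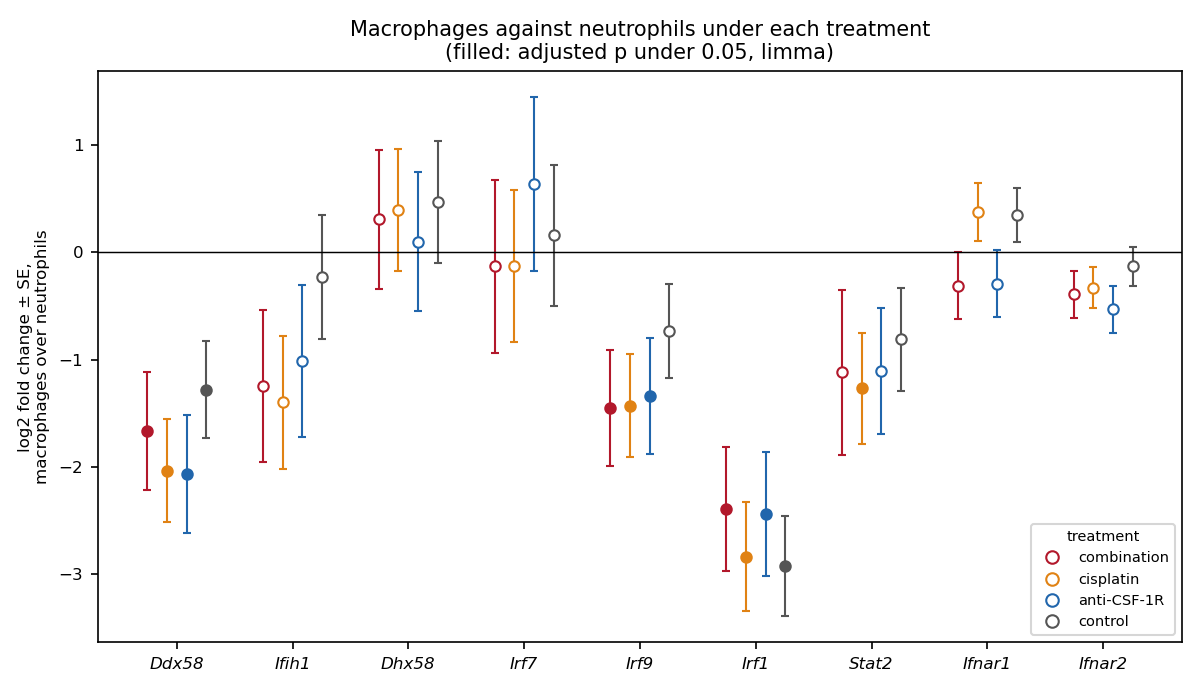
Log2 fold change of macrophages over neutrophils with its SE (y axis) for each gene under the 4 treatments (colours); filled symbols passed an adjusted p of 0.05. Irf1 lies between -2.93 and -2.40 and Ddx58 between -2.07 and -1.28 under every treatment, while Dhx58 and Irf7 lie around 0.

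Under control antibody, where 24.3% of all genes were lower in macrophages and 49.9% differed in either direction, the other pathway lists were counted in the same way. Of 12 other receptors, kinases and STATs 8 were lower in macrophages and 0 higher (median -1.33, all genes 0.13). The receptor kinase Jak1 averaged 383 ± 27.9 in macrophages and 1142 ± 45.8 in neutrophils (SD, n = 4 each; -1.58 ± 0.17 SE, adjusted p = 3e-08), and Jak2 and Stat3 were lower too, at -2.56 and -1.57. Of 18 other sensors and adaptors 7 were higher in macrophages and 4 lower. Mavs, the adaptor of RIG-I and MDA5, averaged 43.7 ± 6.72 in macrophages and 8.51 ± 3.34 in neutrophils (SD, n = 4 each; 2.31 ± 0.33 SE, adjusted p = 3.52e-06). The endosomal receptor gene Tlr7 was higher in macrophages at 2.24, while Nod2 and the Toll-like receptor adaptor Myd88 were lower at -2.53 and -2.40. Of 13 negative regulators 10 were lower, among them Tnfaip3, which encodes the ubiquitin-editing enzyme A20, at -3.19. Of the 20 ISGF3 target effectors 8 were lower and 1 higher.

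The order of the 8 groups by mean had the combination neutrophils first for Ddx58, Ifih1, Irf7, Irf9, Irf1 and Stat2 and the combination macrophages first for Dhx58. For Irf1 it ran from 1156 in combination neutrophils over 618, 515 and 437 in anti-CSF-1R, cisplatin and control neutrophils to 218 in combination macrophages and 122, 62.3 and 56.8 in anti-CSF-1R, cisplatin and control macrophages. The libraries of neighbouring groups in that order overlapped in 4 of 7 steps for Irf1, 5 of 7 for Ddx58, 6 of 7 for Dhx58, Irf7 and Irf9, and 7 of 7 for Ifih1, Stat2 and both receptor chains. Anti-CSF-1R neutrophils had the highest mean of both receptor chains, with 471 ± 136 for Ifnar1 and 525 ± 127 for Ifnar2 (SD, n = 4 each), against 315 ± 55.6 and 375 ± 37.9 in control neutrophils (adjusted p = 0.646 and 0.628).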

How the data were processed

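The deposited table holds 1 signal value per gene and library, normalised read counts that the authors made. The submitters' processing notes name the build mm10 and, with no role given, TopHat2 2.0.11, DESeq2, R 3.3.1, CASAVA 1.8 and Partek 6.6. Per the labels' protocols, NuGen kits (Ovation and Encore Rapid) turned 10 ng of RNA into each library. Of the table's values, 91.1% had a printed form in which a decimal point may be lost, and 67.8% had several possible places. A value was kept at a probability of at least 0.95, and 2.82% were left out. In a test on 85 genes whose true places were known, 57.39% of the values were wrong as printed and 2 of 2273 kept values were wrong after decoding. The analysis had been planned for intact values, so the decoding was added after the table was seen.

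Tests used limma 3.58.1 in R 4.3.3 with an intensity trend on log2(value + 1), so fold changes of low genes are understated. Genes needed a value of at least 10 in 2 libraries. The 4 groups of a cell type were fitted together, and all 8 for macrophages against neutrophils, with Benjamini-Hochberg adjustment over all genes and a threshold of 0.05. Data were simulated with each gene's own spread, independently for each gene and without lost decimal points. There 72.7% of 4-fold and 17% of 2-fold changes were recovered for combination against control neutrophils among 9005 genes. For macrophages 62.6% and 9.38% were recovered among 9072. The changed genes were drawn from all genes at 10 or more in most libraries, so recovery for the sensors and factors was not measured. Figures were drawn with matplotlib 3.10.9. The named genes were the 9 genes, the up to 8 pathway genes with the smallest adjusted p in 4 of the comparisons, the 5 genes most like the mean of the 9, and genes of known role. The members and lists were chosen with earlier results of these data known. Replicates were numbered by accession because the labels number none, and a shared number pairs no samples. Alternatives changed the pseudocount, filter, scaling, weights, decoding, fit and libraries used.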

Additional observations from a re-analysis of the deposited data

How the results depend on the processing

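Of 910 fold changes recomputed under alternatives, 770 kept their direction and side of the threshold, 116 no longer passed, 19 newly passed and 5 reversed. Stat2 in combination macrophages reversed to -1.0 against control and -1.53 against cisplatin when decoded without the groups or with the groups alone, and Ifnar2 against control reversed to -0.01 without control replicate 3, in a range of -0.01 to 0.14 over single libraries left out. Of the 9 genes, 5 passed for combination against control neutrophils, and 3 did with TMM factors, 2 decoded with the groups alone, 1 with no filter on low values, with array weights or with values of 1 possible place only, and 0 with quantile normalisation, limma-voom, decoding without the groups, or both libraries that stood apart left out. Leaving out single libraries gave 0 to 7. For combination against control macrophages, where 2 passed, the count was 7 with array weights, 1 decoded without the groups or with the most probable place, and 0 with no filter, all 8 groups in 1 fit or values of 1 possible place only, and 0 to 7 when single libraries were left out. Against cisplatin in macrophages array weights gave 6 in place of 0. For anti-CSF-1R against control macrophages, single libraries left out gave 0 to 3. For macrophages against neutrophils under control, where 2 passed, the count was 5 decoded without the groups, 4 with the groups alone and 0 with values of 1 possible place only. Quantile normalisation gave 1 in place of 3 after the combination. Leaving out single libraries gave 1 to 3 under control, 0 to 4 with anti-CSF-1R, 2 to 5 with cisplatin and 1 to 3 after the combination. The decodings with the groups alone and by 1 possible place, and the fit without both libraries, were chosen after seeing the data. Calls over all genes moved as well: for combination against control they were 78 in neutrophils and 218 in macrophages as reported, 3 and 102 decoded without the groups, 0 and 151 by limma-voom, and 249 and 143 with all 8 groups in 1 fit. TMM factors moved the median of all genes by -0.11 in macrophages against neutrophils under control and anti-CSF-1R. No paired analysis was possible because the labels give no replicate numbers. The cause of these changes was not tested.

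The 2 combination and 2 anti-CSF-1R macrophage libraries limit every comparison that uses them, and the values of Dhx58 rest on few reads and mostly on a choice of decimal place.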
